A study of Bos grunniens and Bos grunniens x Bos taurus with 6 samples.

Results

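Translation initiation and elongation factors were compared between cattle-yak and yak in longissimus dorsi, a long back muscle. The genes were those whose symbols begin with EIF and a digit or with EEF1 or EEF2. Each symbol stood for the gene identifier that held most of its reads. The 71 symbols led to 65 genes, 51 with EIF and 14 with EEF names, among 31044 genes in the table. Of these, 58 had at least 30 reads over all libraries and were tested among 10397 such genes. The cattle-yak group held 3 libraries of the hybrid of yak and cattle (Bos grunniens x Bos taurus), and the yak group held 3 libraries of Bos grunniens. The labels name no age, sex, diet, direction of the cross or number of animals.

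Eukaryotic translation begins when the cap-binding complex eIF4F, made of EIF4E, an EIF4G scaffold and an EIF4A helicase, recruits a small ribosomal subunit. That subunit carries eIF3, eIF1, eIF1A, eIF5 and the initiator tRNA, which is delivered by the GTP-binding factor eIF2. The nucleotide exchange factor eIF2B recharges eIF2 with GTP, and eIF5B joins the subunits at the start codon. During elongation eEF1A brings charged tRNAs to the ribosome, its exchange complex recharges it, and eEF2 moves the ribosome along the mRNA. The 4E-binding proteins hold EIF4E away from EIF4G until the kinase mTORC1 phosphorylates them. Adult skeletal muscle of mammals is known for making EEF1A2 in addition to the common EEF1A1.

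The libraries held 2382936, 2366057 and 2769106 counted nanopore reads in cattle-yak, against 2350851, 2502603 and 2412511 in yak. The first principal component, with 46.6% of the variance, placed the groups on opposite sides. The summed level of 9 muscle fibre marker genes was 145900 to 159400 CPM in cattle-yak and 204200 to 221500 CPM in yak. Of these markers, ACTA1, MYH2 and MB fell and TTN rose. The other 5 did not pass. Among them MYH1 lay above yak in every cattle-yak library, with 2192 to 3042 CPM against 636.9 to 1791 CPM (edgeR adjusted p = 0.1185). The identifier taken as ACTA1 alone gave 61600 to 80810 CPM in cattle-yak and 102200 to 127300 CPM in yak. Only 1.6% of its reads carried the ACTA1 symbol, and 53.8% of those of MYH2 carried theirs. The 6 fibroblast markers summed to 211 to 378 CPM in cattle-yak and 381 to 476 CPM in yak, and COL3A1 and LUM among them fell. The 2 erythroid genes matched summed to 0.359 to 2.32 CPM in cattle-yak and 2.70 to 25.1 CPM in yak, while ALAS2 was matched to no gene. The 5 macrophage genes matched summed to 7.73 to 24.8 CPM in cattle-yak and 1.73 to 9.01 CPM in yak, with overlap. Among the macrophage markers CD163 rose and LYZ was matched to no gene. The summed endothelial, adipocyte, smooth muscle, lymphocyte and Schwann cell markers also overlapped between the groups, although VWF of the endothelium rose. The part of these markers in the results below was not tested. In bulk tissue, fewer cells of a type and less RNA per cell cannot be told apart.

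Few translation factor genes were called different between the muscles. EIF4EBP1, the first of the 4E-binding repressors, rose in cattle-yak, and EEF1A2, the eEF1A of muscle, and EIF3E, a subunit of eIF3, fell. The other 55 of 58 tested factors did not pass the test, which does not show that their levels were equal. The called share was 5.17% (1 rose and 2 fell), while 9.98% of all tested genes were called, 4.92% higher and 5.06% lower in cattle-yak. The test was edgeR's quasi-likelihood test with Benjamini-Hochberg adjustment over all genes and a threshold of 0.05. At an unadjusted p under 0.05 there were 15 factors. The share of all tested genes or transcripts at that level was not counted, so such counts, here and below, show no excess or lack.

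The factors' log2 fold changes, cattle-yak over yak, had a median of -0.05, beside 0.04 for all genes tested. They were positive for 25 and negative for 33 factors. The 46 initiation factors tested had 23 positive and 23 negative values with a median of 0.03. Of the 12 tested EEF genes, 10 were negative, with a median of -0.34. The libraries of the groups did not overlap for 34.5% of factors, 11 above and 9 below in cattle-yak, beside 29.8% of all tested genes (15.2% above and 14.6% below). Scaling by library size alone raised the median of all genes to 0.22, and all calls then split into 750 higher and 315 lower. Under that scaling 5 factors rose (EIF1B, EIF3C, EIF4EBP1, EIF5 and EIF5B), none fell, and the factors' median was 0.14.

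**Figure D1:**
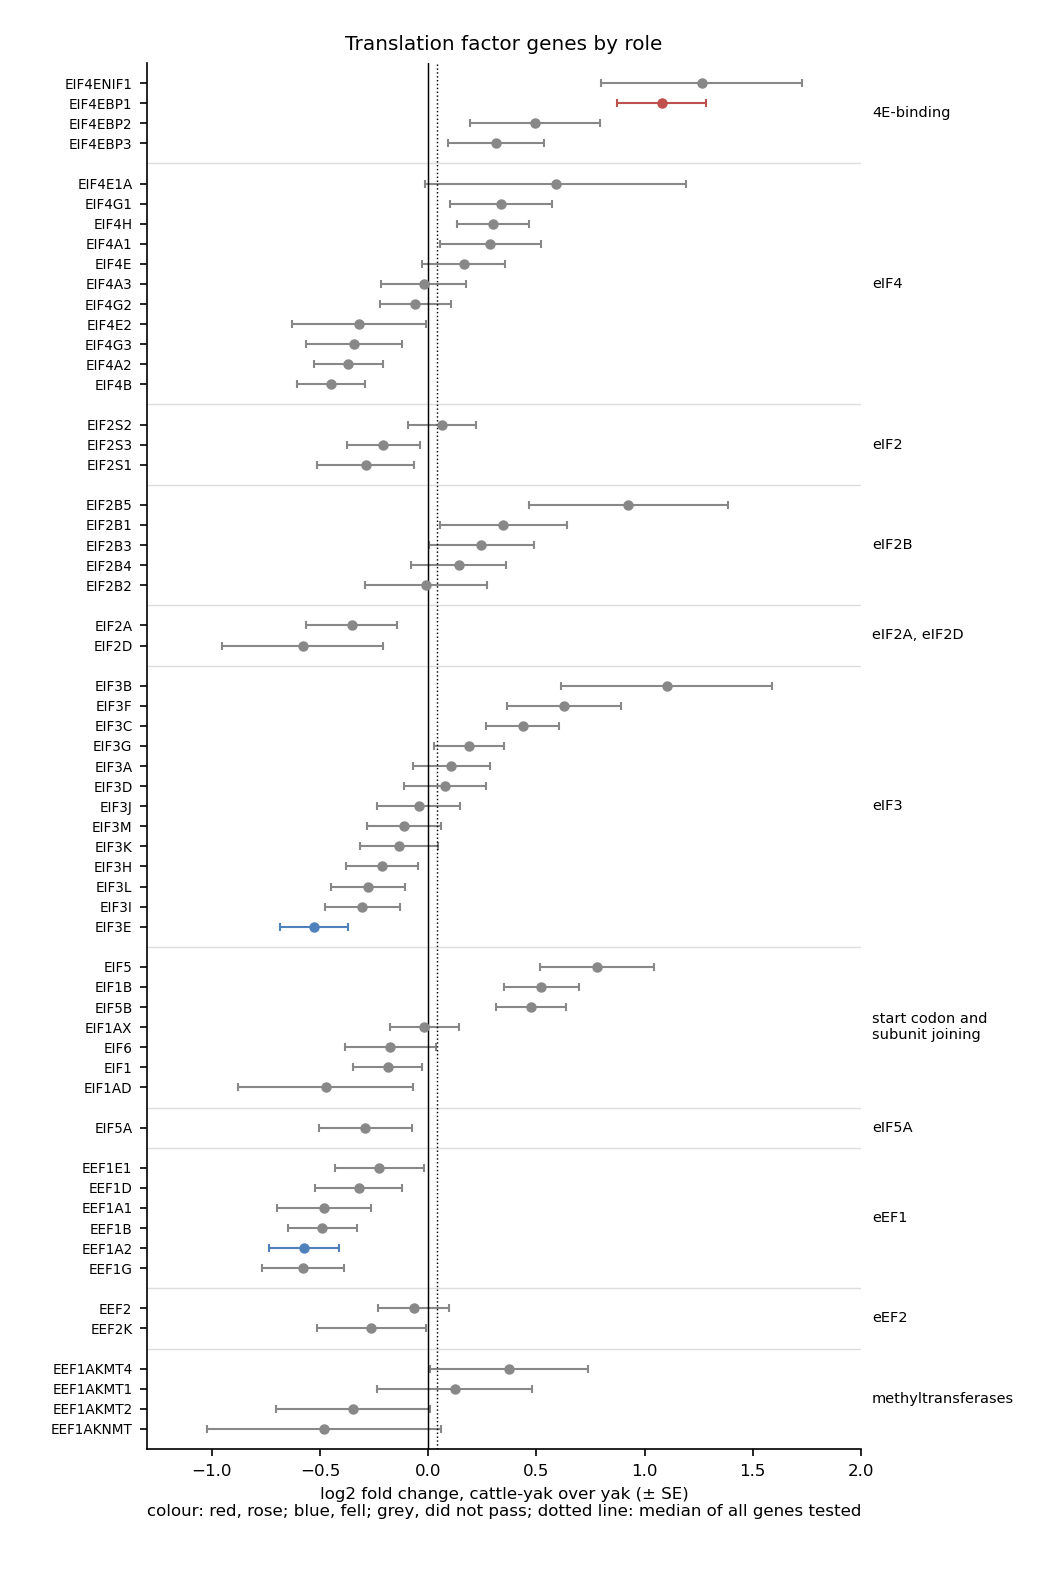
Log2 fold change, cattle-yak over yak, of the 58 tested translation factor genes, grouped by role. Points are edgeR estimates and bars their SE, coloured red for the 1 gene that rose, blue for the 2 that fell and grey for the rest; the dotted line marks the median of all tested genes, 0.04. All 6 eEF1 genes lie left of 0 and all 4 4E-binding genes lie right of it. These include EEF1E1, which does not work on eEF1A, and the gene carried as EIF4EBP3, with 10.8% of its reads so named.

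EIF4EBP1, which blocks cap-dependent initiation when it is not phosphorylated, had 75.3, 108 and 105.5 CPM in cattle-yak, against 40.9, 55.3 and 40.5 CPM in yak. All 3 cattle-yak libraries lay above all yak libraries, the lowest of them being cattle-yak 1. Its log2 fold change, cattle-yak over yak, was 1.08 ± 0.21 (SE, n = 3 each) at an edgeR adjusted p of 0.00390. It was called under all 18 alternatives, with values of 1.00 to 1.30 and adjusted p up to 0.0333. These CPM, like all gene and transcript levels below, are scaled by edgeR's TMM factors. No label ties the libraries to separate animals. The p-values therefore measure the spread between these libraries, which may be technical.

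The other 3 genes grouped as 4E-binding proteins also had positive values but did not pass on counts per gene identifier. EIF4EBP2, the second repressor of the family, had 11.98, 16.4 and 11.5 CPM in cattle-yak and 8.36, 8.64 and 11.3 CPM in yak. The libraries did not overlap, though the gap was narrow (log2 fold change 0.49 ± 0.30, edgeR adjusted p = 0.339). With counts summed by symbol EIF4EBP2 was 1.06 and passed (edgeR adjusted p = 0.0471), and 70.0% of its identifier's reads carried the symbol. EIF4ENIF1, which carries EIF4E into the nucleus and to P-bodies, had 4.25, 11.4 and 5.74 CPM in cattle-yak and 2.64, 3.03 and 3.15 CPM in yak. Cattle-yak 2 was the high library (log2 fold change 1.26 ± 0.47, edgeR adjusted p = 0.0997), and the gene rested on 77 reads. Without cattle-yak 1 EIF4ENIF1 passed the test. The gene carried as EIF4EBP3, the third repressor, averaged 36.5 ± 2.20 CPM in cattle-yak and 29.4 ± 6.88 CPM in yak, and its groups overlapped. Only 10.8% of its reads had that symbol, since most of the rest were named ANKHD1, its neighbour in the human genome. All 4 genes were positive under TMM scaling, under DESeq2's size factors and with library size alone. EIF4ENIF1 and EIF4EBP3 were chosen for mention after their values were seen.

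Among the parts of eIF4F and its helpers, none of 11 tested genes passed, 5 were positive and 6 negative, and 2 had a p under 0.05 before adjustment. EIF4B, which stimulates the EIF4A helicase, had 263.5, 228 and 245 CPM in cattle-yak and 316, 340.1 and 349 CPM in yak. Its groups did not overlap (log2 fold change -0.45 ± 0.16, edgeR adjusted p = 0.0832). EIF4H, a smaller helicase cofactor related to EIF4B, had 167, 148 and 149 CPM in cattle-yak and 139, 111 and 127 CPM in yak. It was higher in each cattle-yak library than in any yak library (0.30 ± 0.17, edgeR adjusted p = 0.284). EIF4G1, the main scaffold, averaged 22.3 ± 3.20 CPM in cattle-yak and 17.6 ± 0.36 CPM in yak, a log2 fold change of 0.34 ± 0.24. EIF4G2, a scaffold that lacks the EIF4E-binding part, averaged 423 ± 65.5 CPM in cattle-yak and 441 ± 7.93 CPM in yak. Its groups overlapped, as did those of the cap-binding protein EIF4E itself (81.7 ± 13.1 CPM in cattle-yak and 73.0 ± 10.7 CPM in yak). The log2 fold changes of EIF4A3, EIF4E1A, EIF4E2 and EIF4G3 ran from -0.34 to 0.59 with overlapping groups. EIF4E3, a distant relative of EIF4E, had 18 reads in all and was not tested.

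The helicase EIF4A2 had 338, 389.6 and 422.5 CPM in cattle-yak, against 515, 479 and 493 CPM in yak. All cattle-yak libraries lay below all yak libraries (log2 fold change -0.37 ± 0.16, edgeR adjusted p = 0.160). Its near-identical partner EIF4A1 averaged 39.8 ± 2.86 CPM in cattle-yak and 32.7 ± 9.88 CPM in yak. As a share of the reads of both helicases, EIF4A2 held 89.1%, 91.4% and 91.0% in cattle-yak and 95.98%, 93.0% and 92.4% in yak. The shares did not overlap, and the difference of -3.28 percentage points had p = 0.1 in a two-sided exact permutation test, the smallest p that 3 against 3 libraries allow. Reads of such close paralogs may have been split between them in counting. With reference transcripts only, the difference was -13.1 points.

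For eIF2, which delivers the initiator tRNA, no subunit passed the test on counts per gene identifier. EIF2S1, the alpha subunit that is phosphorylated under stress, had 33.2, 25.5 and 25.5 CPM in cattle-yak and 29.9, 30.3 and 42.8 CPM in yak. The groups overlapped (log2 fold change -0.29 ± 0.22, edgeR adjusted p = 0.459). EIF2S2, the beta subunit, averaged 228.5 ± 13.7 CPM in cattle-yak and 219 ± 4.17 CPM in yak (0.06 ± 0.16). Only 40.7% of the reads of its identifier carried the EIF2S2 symbol, and with counts summed by symbol EIF2S2 was 0.60 and passed (edgeR adjusted p = 0.0414). EIF2S3, the gamma subunit that binds GTP, had 96.6, 83.3 and 77.8 CPM in cattle-yak and 99.5, 100.2 and 97.7 CPM in yak. Its groups were separated by a small gap (-0.21 ± 0.17, edgeR adjusted p = 0.487). EIF2AK1 and EIF2AK3, kinases of the alpha subunit, had 19 and 8 reads in all and were not tested. EIF2A and EIF2D, proteins outside eIF2 that can place tRNA on the ribosome, averaged 41.6 ± 10.3 and 8.26 ± 3.71 CPM in cattle-yak, against 53.2 ± 3.10 and 12.4 ± 4.11 CPM in yak. Both overlapped between the groups, and both were chosen for mention after their values were seen.

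The 5 subunits of eIF2B, the exchange factor of eIF2, did not pass and all overlapped between the groups. EIF2B5, the catalytic epsilon subunit, had 8.11, 3.80 and 10.8 CPM in cattle-yak and 2.20, 4.32 and 5.40 CPM in yak, with cattle-yak 2 among the yak values. Over 88 reads, the change was 0.93 ± 0.46 on the log2 scale (edgeR adjusted p = 0.225). EIF2B1 (0.35 ± 0.29), EIF2B3 (0.25 ± 0.24), EIF2B4 (0.14 ± 0.22) and EIF2B2 (-0.01 ± 0.28) were closer to 0. The median of the 5 was 0.25.

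In eIF3, the scaffold of the small subunit, the members went both ways: 1 fell, none rose, and of 13 tested genes 6 were positive and 7 negative (median -0.05). EIF3E, a peripheral subunit, had 195, 207 and 186.5 CPM in cattle-yak, against 295, 262 and 291 CPM in yak. Every cattle-yak library lay below every yak library, and the spread within each group was small. On the log2 scale the difference was -0.53 ± 0.16 (edgeR adjusted p = 0.0454). That call sat at the threshold: it was lost without each of the 6 libraries in turn (adjusted p 0.0632 to 0.152), with DESeq2 (0.0532), with limma-voom (0.0519) and with library size alone (0.180).

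At the other end of eIF3, EIF3B, a core subunit that binds RNA, had 8.89, 6.47 and 7.53 CPM in cattle-yak and 7.04, 1.73 and 1.80 CPM in yak. Yak 1 reached the cattle-yak level, so the groups overlapped (log2 fold change 1.102 ± 0.487, edgeR adjusted p = 0.169, 85 reads). Without yak 1 EIF3B passed. EIF3C, the other large core subunit beside EIF3A, had 142.9, 144 and 144 CPM in cattle-yak and 92.9, 124 and 102 CPM in yak. The cattle-yak libraries were nearly equal and all above yak (0.44 ± 0.17, edgeR adjusted p = 0.121). EIF3F, a subunit with a deubiquitinase-like fold, averaged 22.4 ± 2.55 CPM in cattle-yak and 14.5 ± 3.90 CPM in yak without overlap (0.63 ± 0.27, edgeR adjusted p = 0.149). EIF3A, the largest subunit, averaged 309 ± 60.5 CPM in cattle-yak and 287 ± 25.7 CPM in yak and overlapped. EIF3L averaged 98.2 ± 9.44 CPM in cattle-yak and 119 ± 11.6 CPM in yak, without overlap and without passing. The log2 fold changes of EIF3D, EIF3G, EIF3H, EIF3I, EIF3J, EIF3K and EIF3M ran from -0.305 to 0.19, and of these EIF3G lay above and EIF3H below yak in every library. EIF3C, EIF3F and EIF3L were chosen for mention after their values were seen. Summed over the members of eIF3, the share of all reads was 0.200%, 0.182% and 0.168% in cattle-yak and 0.167%, 0.174% and 0.170% in yak.

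Of 7 factors of start codon selection and subunit joining, none passed. EIF5, EIF5B and EIF1B were above yak in every cattle-yak library, as were 15.2% of all tested genes. EIF5, the activator of GTP hydrolysis by eIF2, had 42.5, 30.8 and 24.8 CPM in cattle-yak and 17.2, 15.6 and 24.3 CPM in yak. The gap between cattle-yak 3 and yak 3 was narrow, and on the log2 scale EIF5 differed by 0.78 ± 0.26 (edgeR adjusted p = 0.0705). EIF5B, the GTPase of subunit joining, had 266, 249 and 259 CPM in cattle-yak and 168, 207 and 181.5 CPM in yak. The groups were well apart (0.47 ± 0.16, edgeR adjusted p = 0.0740). EIF1B, a close relative of EIF1, had 91.9, 114 and 106 CPM in cattle-yak and 69.5, 76.5 and 70.7 CPM in yak (0.52 ± 0.17, edgeR adjusted p = 0.0669). It was chosen for mention after its values were seen. With library size alone all 3 passed, with log2 fold changes of 0.98 for EIF5, 0.66 for EIF5B and 0.71 for EIF1B. With a minimum mean of 10 CPM, EIF5B and EIF1B passed.

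EIF1, which guards the choice of the start codon, had 42204 reads, 28.1% of the 150191 reads of all members, as counts not divided by length. It averaged 2680 ± 290.1 CPM in cattle-yak and 3052 ± 175 CPM in yak with overlap (log2 fold change -0.19 ± 0.16, edgeR adjusted p = 0.500). EIF1AX, which works with EIF1 on the small subunit, averaged 129 ± 5.12 CPM in cattle-yak and 131 ± 6.86 CPM in yak (-0.02 ± 0.16). EIF1AD, which shares a domain with EIF1AX, had 72 reads and a log2 fold change of -0.475 ± 0.40. EIF6, which keeps the large subunit from joining too early, averaged 41.2 ± 5.91 CPM in cattle-yak and 46.5 ± 9.02 CPM in yak (-0.17 ± 0.21). EIF5A, the hypusine-carrying factor that helps the ribosome through difficult peptide bonds, had 147, 116 and 202 CPM in cattle-yak and 232, 152 and 185 CPM in yak. Both groups varied widely and overlapped (-0.29 ± 0.22, edgeR adjusted p = 0.433).

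All 6 genes of the eEF1 group had negative values, with a median of -0.49 and a range from -0.58 to -0.23. Of them 1 passed, EEF1A2, and 3 lay below yak without overlap, beside 9.98% of all tested genes called and 14.6% below without overlap. EEF1A2, the eEF1A of adult muscle, heart and neurons, had 178, 211.5 and 179 CPM in cattle-yak, against 301, 266 and 280.5 CPM in yak. All cattle-yak libraries lay below the lowest yak library. This is a change of -0.58 ± 0.16 on the log2 scale (edgeR adjusted p = 0.0337). The call was lost without any library except cattle-yak 2 (adjusted p 0.0700 to 0.109), with library size alone (-0.39, 0.138) and with counts summed by symbol (0.0704). With reference transcripts only, the value was 0.07.

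EEF1A1, the common eEF1A, had 212.5, 361 and 260.0 CPM in cattle-yak and 352, 492 and 320.1 CPM in yak. Cattle-yak 2 and yak 2 were the high libraries of their groups, and the groups overlapped (log2 fold change -0.48 ± 0.21, edgeR adjusted p = 0.176). Of the reads of both eEF1A genes, EEF1A2 held 45.6%, 37.0% and 40.8% in cattle-yak and 46.1%, 35.1% and 46.7% in yak. These shares overlapped, and the difference of -1.52 percentage points had p = 0.8 in a two-sided exact permutation test. Both genes encode nearly the same protein, and several other identifiers carry the EEF1A1 name, so reads may have been split among copies.

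The exchange complex of eEF1A followed the same sign. EEF1G, its scaffold subunit, had 944.5, 597 and 919 CPM in cattle-yak and 1180, 1151 and 1343 CPM in yak. Cattle-yak 2 was far below the other cattle-yak libraries, and the groups did not overlap (log2 fold change -0.58 ± 0.19, edgeR adjusted p = 0.0641). Without cattle-yak 2 it was -0.37 (adjusted p = 0.205), and with no low count filter the gene passed (adjusted p = 0.0125). EEF1B, the beta exchange subunit, had 311, 281 and 337 CPM in cattle-yak and 434, 455 and 415 CPM in yak. These groups were also apart (-0.49 ± 0.16, edgeR adjusted p = 0.0622). Only 10.2% of its reads had the symbol. The others were described as elongation factor 1-beta. EEF1D, the delta exchange subunit, averaged 197 ± 24.8 CPM in cattle-yak and 246 ± 70.4 CPM in yak, with overlap (-0.32 ± 0.20). EEF1E1, which works in the multi-tRNA synthetase complex and not on eEF1A, averaged 48.4 ± 10.7 CPM in cattle-yak and 56.7 ± 5.83 CPM in yak. Only 33.7% of its identifier's reads carried the symbol. It was chosen for mention after its values were seen. All 6 values were negative under TMM scaling, DESeq2's size factors and library size alone (median -0.30), but 2 of 5 were positive with reference transcripts only. Without EEF1E1, the eEF1 genes together held 0.203%, 0.181% and 0.189% of all reads in cattle-yak and 0.250%, 0.235% and 0.239% in yak. This sum was chosen after the values were seen and is given as a description only.

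**Figure D2:**
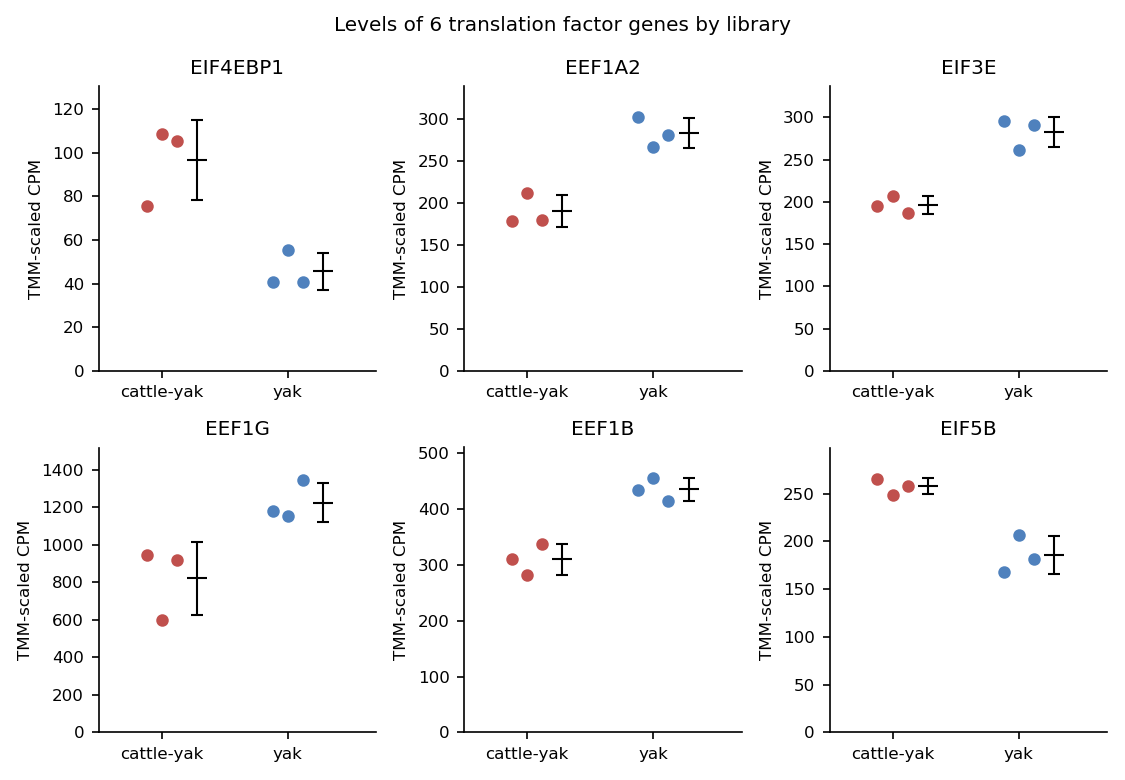
TMM-scaled CPM of EIF4EBP1, EEF1A2, EIF3E, EEF1G, EEF1B and EIF5B by library. Points are libraries in the order of their numbers, and the bars give the mean ± SD of 3 libraries. Each panel shows 3 cattle-yak points on one side of all 3 yak points; EIF4EBP1 rose, EEF1A2 and EIF3E fell, and the genes EEF1G, EEF1B and EIF5B did not pass.

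EEF2, the translocase of elongation, had 409, 407 and 368 CPM in cattle-yak and 468, 366 and 407.5 CPM in yak. The groups overlapped (log2 fold change -0.07 ± 0.16, edgeR adjusted p = 0.839), and the sign turned with library size alone (0.12). EEF2K, the kinase that switches EEF2 off, averaged 17.9 ± 3.99 CPM in cattle-yak and 21.5 ± 2.39 CPM in yak (-0.26 ± 0.25). Of 6 methyltransferase genes that modify eEF1A or eEF2, 4 could be tested and none passed. EEF1AKMT4 (0.37 ± 0.36) and EEF1AKMT1 (0.12 ± 0.36) were positive and EEF1AKMT2 (-0.35 ± 0.36) and EEF1AKNMT (-0.48 ± 0.54) negative. Altogether 7 members had between 8 and 19 reads and were not tested, EEF1AKMT3, EEF2KMT, EIF2AK1, EIF2AK3, EIF3JA, EIF4E3 and EIF5A2. All 65 genes together held 1.103%, 0.980% and 0.966% of reads in cattle-yak, against 1.03%, 0.998% and 1.03% in yak, and overlapped.

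The long reads were also counted for single transcripts, some with a reference identifier of the yak annotation and others assembled from the reads. Members had 1872 transcripts, of which 323 in 53 genes reached 30 reads. Of these, 24 were called (13 rose, 11 fell), or 7.43% beside 12.8% of all 27036 tested transcripts (6.52% higher, 6.27% lower), and 66 had a p under 0.05. The calls lay in 15 genes, and 17 of them in genes that did not pass as a whole. An isoform and a cattle allele assembled apart from its yak counterpart cannot be told apart here.

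The reference transcript of EIF4EBP1 (ENSBGRT00000034295) rose, with 64.8, 94.3 and 91.6 CPM in cattle-yak and 35.7, 47.2 and 34.4 CPM in yak (log2 fold change 1.09 ± 0.23, edgeR adjusted p = 0.00414). It held 85.6% ± 1.55 of the gene's reads in cattle-yak and 86.8% ± 0.24 in yak, so the gene and this transcript moved alike. In EIF4B, assembled transcripts TALONT001348260 and TALONT001348261 fell, by 1.32 ± 0.28 and 1.16 ± 0.26 on the log2 scale (edgeR adjusted p = 0.00506 and 0.00646). TALONT001348261 had 50.6, 22.9 and 33.9 CPM in cattle-yak and 74.1, 77.9 and 88.1 CPM in yak. Each library of cattle-yak was below yak. In EIF5B, TALONT001074795 rose to 133, 136.5 and 139 CPM in cattle-yak, against 71.0, 91.5 and 77.5 CPM in yak (0.77 ± 0.19, edgeR adjusted p = 0.0126). This call was lost without yak 1 (0.0692) and without yak 3 (0.0543). In EIF2S3, TALONT001406971, a transcript of few reads, rose (1.98 ± 0.50, edgeR adjusted p = 0.0143, mean 6.43 CPM in cattle-yak and 1.61 CPM in yak), a call lost without yak 2 (0.0714), without yak 3 (0.0568) and with DESeq2 (0.0590).

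Usage, the split of a gene's reads among its transcripts, could be tested in 37 members and was called in 5, EIF3E, EEF2, EIF2S2, EIF3A and EEF1A2. That is 13.5% of them, beside 5.38% of the 2863 genes tested. In EIF3E (edgeR diffSpliceDGE adjusted p = 0.000317), the main transcript TALONT000217257 held 73.4%, 54.5% and 63.5% of the gene's reads in cattle-yak, against 81.97%, 76.2% and 79.1% in yak. The assembled transcript TALONT000223041 held 7.34%, 20.7% and 12.9% in cattle-yak and 0.745%, 1.49% and 0% in yak. It rested on 37, 113 and 67 reads in cattle-yak and 5, 9 and 0 reads in yak, and cattle-yak 2 gave more of them than any other library. The usage test of EIF3E used only these 2 transcripts. In every yak library TALONT000223041 lay under the 5% minimum, so it entered the test through its cattle-yak reads. Within that edgeR diffSpliceDGE test its unadjusted p was 2.7e-06, against 0.447 for TALONT000217257. The usage call thus rests on a transcript nearly absent from yak. Without cattle-yak 2 TALONT000223041 held under 5% of the gene and EIF3E could not be tested, and the call held without each other library. Counted alone, TALONT000217257 fell by 0.81 ± 0.18 on the log2 scale (edgeR adjusted p = 0.00693), and TALONT000223041, named after its values were seen, rose by 3.74 ± 0.75 (0.0177).

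EEF2 changed in usage while its gene level did not pass (edgeR diffSpliceDGE adjusted p = 0.000361, called without each library in turn, up to 0.0163). Its reference transcript ENSBGRT00000034522 held 45.2%, 38.4% and 39.8% of the reads in cattle-yak, against 58.2%, 53.1% and 60.0% in yak. The assembled transcript TALONT001095051 held 8.50%, 8.40% and 8.10% in cattle-yak and 3.85%, 4.84% and 3.87% in yak. These shares did not overlap, and TALONT001095051 also rose when counted alone (log2 fold change 0.97 ± 0.24, edgeR adjusted p = 0.0140), although not without yak 3 (0.0653). Under the Simes method the usage of EEF2 did not pass (adjusted p = 0.120).

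The other usage calls were weaker. In EIF2S2 (edgeR diffSpliceDGE adjusted p = 0.0180), the reference transcript ENSBGRT00000012688 held 36.9% ± 4.59 in cattle-yak and 52.9% ± 3.26 in yak. The assembled TALONT000383689 held 32.8% ± 3.84 in cattle-yak and 21.8% ± 0.67 in yak. In EIF3A (adjusted p = 0.0188 in the same edgeR test), TALONT000615679 held 9.51% ± 0.24 in cattle-yak and 5.27% ± 0.16 in yak, while TALONT000614984 held 4.91% ± 1.06 in cattle-yak and 9.77% ± 1.62 in yak. In EEF1A2 (edgeR adjusted p = 0.0385), the assembled TALONT000327398 held 2.60%, 3.60% and 6.0% in cattle-yak and 7.88%, 7.63% and 8.51% in yak. Counted alone, it fell by 1.52 ± 0.32 on the log2 scale (edgeR adjusted p = 0.00498). The reference transcript of EEF1A2 (ENSBGRT00000030861) had 74, 73 and 74 reads in cattle-yak and 82, 60 and 70 reads in yak. These counts are unscaled, and the transcript held 16.05%, 13.1% and 14.8% of the gene's reads in cattle-yak and 11.97%, 9.74% and 11.2% in yak. The fits on reference or assembled transcripts alone were scaled apart, so they do not divide the lower gene level between them. The calls of EIF2S2, EIF3A and EEF1A2 were each lost without at least 4 of the 6 libraries, with adjusted p up to 0.135, 0.204 and 0.214.

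**Figure D3:**
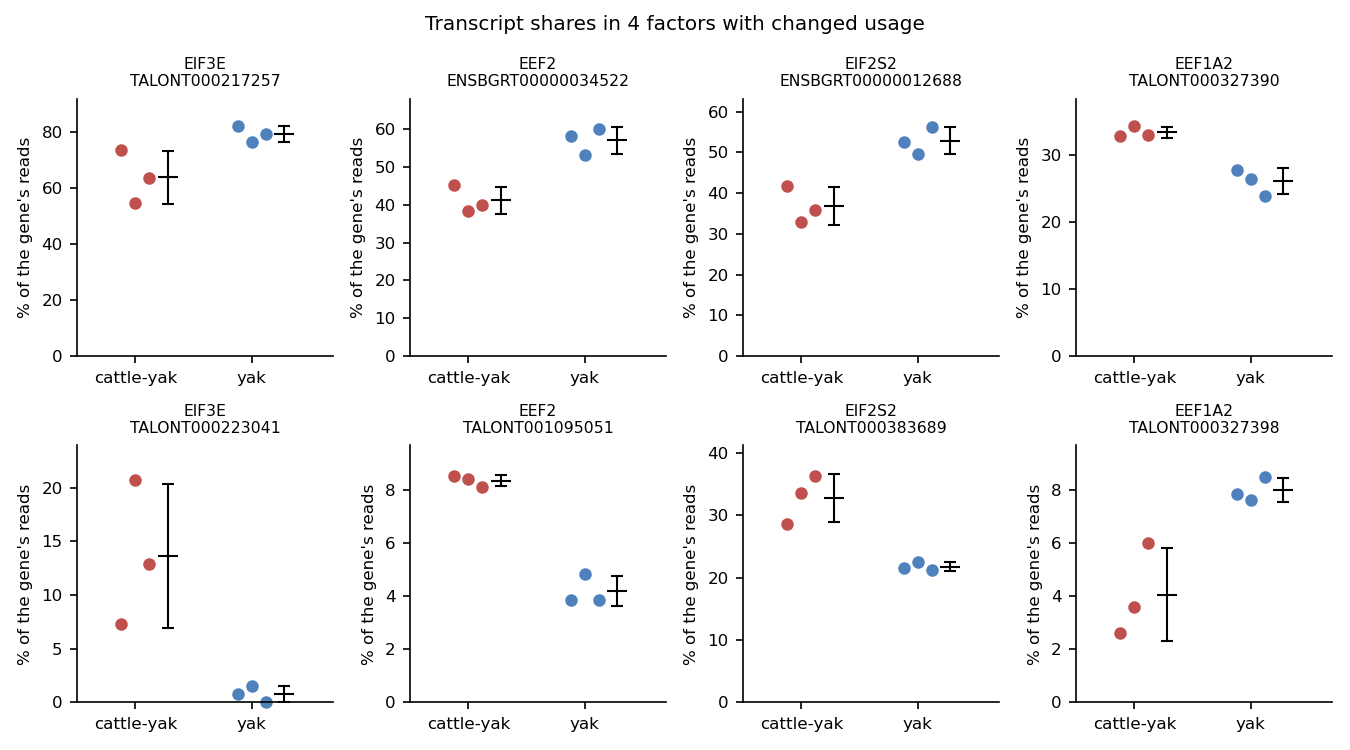
Share of the gene's reads, in percent, held by a major transcript (top row) and a second transcript (bottom row) of EIF3E, EEF2, EIF2S2 and EEF1A2. Points are libraries and bars the mean ± SD of 3. In each panel the 3 cattle-yak points lie on one side of the 3 yak points; TALONT000223041 of EIF3E ranged from 7.34% to 20.7% in cattle-yak and from 0% to 1.49% in yak.

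Partner genes of the factors were read from lists. Their counts stand beside the 9.98% of all tested genes that were called, 4.92% higher and 5.06% lower in cattle-yak. Of 13 poly(A)- and mRNA-binding partners tested, 3 rose and 1 fell (median log2 fold change 0.07), and these 4 are named after their values were seen. PABPC1, the poly(A)-binding protein that bridges the mRNA tail to EIF4G, averaged 75.2 ± 12.7 CPM in cattle-yak and 29.3 ± 2.87 CPM in yak (1.36 ± 0.20, edgeR adjusted p = 0.000577). YBX3, a cold-shock protein that binds mRNA, averaged 815 ± 124 CPM in cattle-yak and 377 ± 19.7 CPM in yak (1.11 ± 0.17, edgeR adjusted p = 0.000734). Both were called under all 16 alternatives. PABPC4, a second poly(A)-binding protein, rose by 0.60 ± 0.18 and LARP4, which binds poly(A) and PABPC1, fell by 0.76 ± 0.23 on the log2 scale (edgeR adjusted p = 0.0422 and 0.0484). PABPC4 and LARP4 were lost under most alternatives, PABPC4 without each library except cattle-yak 2 and LARP4 without each except yak 1.

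Of 8 genes of termination and recycling, 1 fell and none rose (median 0.02). HBS1L, a GTPase that rescues stalled ribosomes, averaged 130 ± 19.8 CPM in cattle-yak and 203 ± 20.7 CPM in yak (-0.64 ± 0.17, edgeR adjusted p = 0.0292), and the call was lost without each library except cattle-yak 1. With reference transcripts only its value was 0.42. Of 21 cytosolic aminoacyl-tRNA synthetases, the enzymes that charge tRNAs, 2 fell and none rose (median -0.15). SARS1, for serine, averaged 45.2 ± 2.37 CPM in cattle-yak and 98.8 ± 17.0 CPM in yak (-1.13 ± 0.19, edgeR adjusted p = 0.00150), called under all 16 alternatives. FARSB, a subunit of the phenylalanine enzyme, fell by 0.72 ± 0.20 on the log2 scale (edgeR adjusted p = 0.0292), a call lost without cattle-yak 1, cattle-yak 2, yak 2 or yak 3 (up to 0.137).

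Of 11 tested genes of the integrated stress response, the programme that follows phosphorylation of eIF2, 2 fell and none rose (median -0.43). Both make serine. PHGDH, the first enzyme of that pathway, had 0.773, 1.902 and 0.359 CPM in cattle-yak and 6.16, 10.8 and 5.40 CPM in yak (-2.84 ± 0.58, edgeR adjusted p = 0.00581). PSAT1, the next enzyme, had 1.16, 0 and 1.08 CPM in cattle-yak and 8.36, 10.4 and 2.70 CPM in yak (-3.17 ± 0.71, edgeR adjusted p = 0.0109), and it did not pass without yak 2 (0.0517) or with limma-voom (0.110). The groups were apart for both, at low counts of 59 and 55 reads, most of them in yak. Both genes reached the minimum of pooled reads through yak, so the sizes of these changes rest on very few cattle-yak reads. With reference transcripts only PHGDH did not pass (-2.68, edgeR adjusted p = 0.0579). None of 19 genes of mTORC1 and cap signalling (median 0.02) and none of 9 mitochondrial translation factors (median -0.13) passed. Of the mTORC1 list, RPTOR, PIK3R1, DEPTOR and LAMTOR1 were matched to no gene. MTOR, RICTOR and TSC2 had only 84, 44 and 46 reads. The identifiers taken as RRAGA and AKT2 carried those symbols on 0.5% and 7.6% of their reads.

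**Figure D4:**
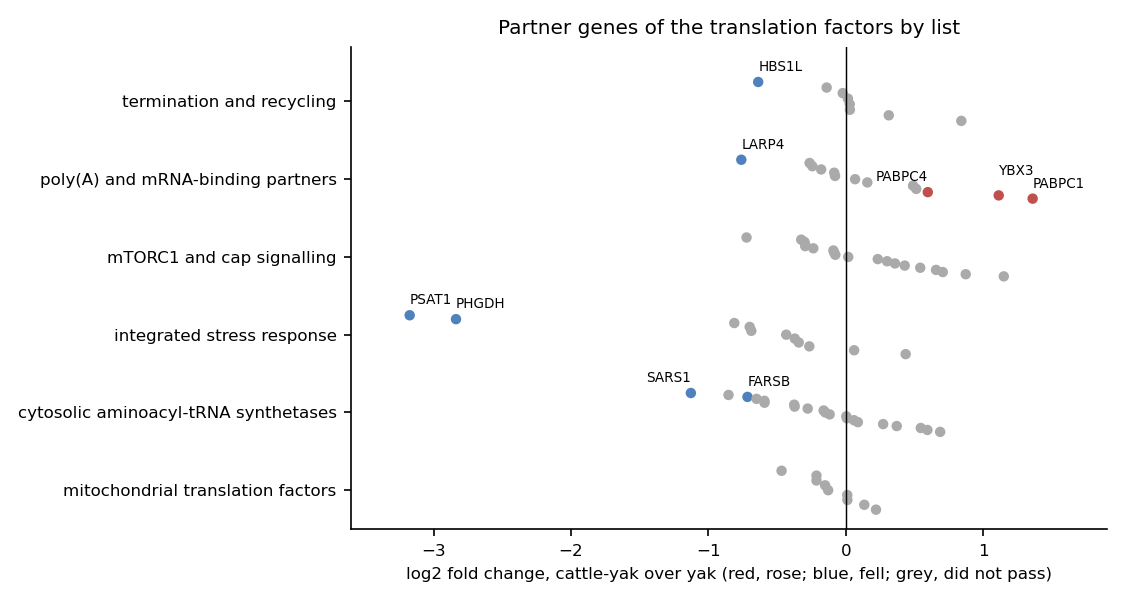
Log2 fold change, cattle-yak over yak, of the tested genes of 6 partner lists, one point per gene. Red points rose, blue points fell and grey points did not pass; called genes are named. Called genes lie in 4 lists, from PSAT1 at -3.17 to PABPC1 at 1.36, and the mTORC1 and mitochondrial lists have none.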

How the data were processed

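Full-length nanopore cDNA was sequenced from 3 cattle-yak and 3 yak samples of longissimus dorsi, from total RNA and a cDNA-PCR kit per the labels' protocols. The deposited table gives raw read counts for every transcript. It also gives CPM that the authors derived from those counts, equal to counts over each library's total within 0.005. Tools named in the submitters' processing notes are fastp, minimap2 and GSNAP. Genome build, counting software and strand use were not given in the sources used here, so overlapping genes may share reads.

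Counts were summed per gene identifier, leaving out 61 transcripts without one (at most 0.00249% of a library). Genes and transcripts with at least 30 pooled reads were tested with edgeR 4.0.16 (TMM, robust quasi-likelihood) in R 4.3.3, at a Benjamini-Hochberg adjusted p under 0.05. The SE is the log2 fold change over the square root of the F statistic. Usage was tested with diffSpliceDGE on transcripts with at least 5% of their gene. Single shares used two-sided exact permutation tests. Tested on simulated counts of 10443 genes, the gene test found 33% of 1 log2 unit changes and 84% of 2 log2 unit changes. On simulated counts of 27336 transcripts, the transcript test found 8% of 1 log2 unit changes and 76% of 2 log2 unit changes. These simulations gave every gene or transcript the same dispersion and changed few of them, so their rates need not hold for these data.

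The members and lists were chosen with earlier results of these data known. The rule for named genes took the called members, main factors of each role, called eIF3 subunits with the highest and lowest, up to 4 transcripts per direction by p, all usage calls, and up to 4 called genes per list. Symbols EEF1AS, EIF2S3B, EIF3G-A, EIF3J1, EIF4A3-A and EIF4A3-B shared an identifier with another member. Sequences were not used here. The reads carry no molecular identifiers, so PCR copies count as separate reads. Alternatives were DESeq2 1.42.0, limma 3.58.1 (voom), other scalings and filters, reference or assembled transcripts alone, counts summed by symbol, fits that leave out 1 library, and a replicate block. Tables and plots were made in Python 3.11.15, pandas 2.3.3 and matplotlib 3.10.9.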

Additional observations from a re-analysis of the deposited data

How the results depend on the processing

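The number of called factor genes was 3, but 5 with library size alone, 5 with a mean of at least 10 CPM, 5 with counts summed by symbol and 1 to 3 without single libraries. Called transcripts numbered 24, against 11 with DESeq2 and 7 to 26 without single libraries. Usage calls numbered 5, against 1 with the Simes method, 1 with a minimum share of 10%, 10 with a minimum share of 1% and 1 to 6 without single libraries. The difference in the EEF1A2 share turned to 0.418 points with reference transcripts only and ran from -5.29 to 0.558 without single libraries. The difference in the share of all reads held by the factors, -0.00181 points, turned to 0.00445 when only transcripts with the symbol were counted and ran from -0.0451 to 0.0234 without single libraries.

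Signs of log2 fold changes turned in the called factor EEF1A2 (0.074) and the called partner HBS1L (0.42), both with reference transcripts only, and in factors that did not pass. With library size alone EEF2 (0.12), EIF4G2 (0.13), EIF2B2 (0.17), EIF1 (0.0005), EIF1AX (0.17) and EIF6 (0.015) turned positive. So did EEF2 (0.0077), EIF4G2 (0.014), EIF2B2 (0.057) and EIF1AX (0.06) with a mean of at least 10 CPM, and EEF2 (0.021), EIF4G2 (0.037), EIF2B2 (0.071) and EIF1AX (0.071) with counts summed by symbol. EIF2B2 (0.025) and EIF1AX (0.023) turned with filterByExpr, EIF2S2 (-0.014) with no low count filter, and EEF2 (0.35) and EIF2B2 (0.067) with assembled transcripts only. With reference transcripts only EEF1A1 (0.11), EIF2S2 (-0.22), EIF2B2 (0.16), EIF1 (0.041) and EIF1AX (0.23) turned. Without single libraries EEF2 ran from -0.15 to 0.03, EIF4G2 from -0.17 to 0.04, EIF2B2 from -0.14 to 0.27, EIF1AX from -0.056 to 0.041 and EIF3A from -0.042 to 0.21. The causes were not tested. Of 910 values of single genes, transcripts and usage under alternatives, 806 kept their sign and side of the threshold.

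Replicate numbers showed no sign of pairing: deviations of same-numbered libraries correlated at -0.041, -0.012 and 0.012. Differently numbered libraries gave -0.032 to 0.044. With 3 libraries per group, this check cannot exclude a pairing or a shared batch. With the replicate block 1 factor gene, EIF4EBP1, was called in place of 3, and 3 usage calls in place of 5. Factors with few reads limit what could be seen: 7 tested genes had under 100 reads.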
